A study of Mus musculus with 6 samples.

Results

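The 9 genes described here encode the contractile apparatus of smooth muscle, which in the testis marks the peritubular myoid cells: Acta2, Actg2, Myh11, Myl9, Tpm1, Tpm2, Cnn1, Tagln and Des. Every probe set that the platform annotation assigns to exactly 1 of these symbols was taken, which gave 19 of the 45101 probe sets on the array; the 9 genes are among 18193 that the annotation names. They were read on all 6 arrays of a study of sorted mouse elongating spermatids. Testes of ICR mice, an outbred strain that the labels call wild type, were transduced at 5 weeks of age with a lentivirus that also carried GFP. After 1 week, elongating spermatids that glowed green were taken from the total germ cells by sorting. The control group received the empty vector pSilencer, the shCaf1 group a hairpin named for Caf1, taken here to be the deadenylase Cnot7, and the shMiwi group a hairpin named for the PIWI protein Miwi (Piwil1). There were 3 groups of 2 arrays, and the labels call the arrays of a group biological replicates. The sources used here do not say how many animals an array stands for, so the p-values measure only the spread between these arrays.

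Peritubular myoid cells are flat, smooth-muscle-like cells that wrap the seminiferous tubule and, by contracting, move fluid and sperm along it. They share with Sertoli cells the making of the basement membrane. Contraction runs on filaments of smooth muscle actin pulled by a smooth muscle myosin, which is switched on by phosphorylation of its regulatory light chain, while tropomyosin and calponin lie along the actin filament and desmin forms an intermediate filament scaffold. Many genes of this set are driven by the serum response factor with its coactivator myocardin, through a DNA element called the CArG box. Elongating spermatids are haploid germ cells and are not known for smooth muscle contraction, although transcripts of the smooth muscle gamma-actin Actg2 have been described in haploid germ cells.

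The promoters of Acta2 and Myl9 are shown because a CArG element, counting those with 1 changed core letter, was found in both and in no other member with a window. Each sequence runs 5′ to 3′ on the strand of the gene, from 250 bases before a RefSeq transcript start to 50 bases after it (assembly GRCm38.p6), and capitals mark CArG boxes with at most 1 letter other than A or T in the 6-letter core. The Acta2 window lies at chr19:34255324-34255623 on the minus strand and the Myl9 window at chr2:156775214-156775513 on the plus strand.
Acta2: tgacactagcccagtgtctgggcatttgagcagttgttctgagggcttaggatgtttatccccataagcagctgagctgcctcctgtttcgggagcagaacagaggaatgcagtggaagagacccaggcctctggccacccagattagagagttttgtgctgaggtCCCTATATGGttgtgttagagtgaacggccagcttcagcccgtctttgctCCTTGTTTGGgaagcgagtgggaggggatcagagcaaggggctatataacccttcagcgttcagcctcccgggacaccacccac
Myl9: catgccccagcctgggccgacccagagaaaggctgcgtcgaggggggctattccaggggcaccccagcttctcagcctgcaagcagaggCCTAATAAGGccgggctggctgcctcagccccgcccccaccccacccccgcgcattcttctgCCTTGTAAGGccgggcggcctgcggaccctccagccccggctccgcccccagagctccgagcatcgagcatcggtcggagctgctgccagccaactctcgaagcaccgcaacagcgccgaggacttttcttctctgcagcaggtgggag
Acta2 held CCCTATATGG and CCTTGTTTGG, starting 84 and 34 bases upstream of the start, each with 1 such letter in the core. Myl9 held the exact box CCTAATAAGG at 161 bases upstream and CCTTGTAAGG, with 1 such letter, at 99 bases. Of the 6 members with a RefSeq window (Acta2, Cnn1, Des, Myl9, Tpm1 and Tpm2), 1 held an exact box, against 1.63% of all 32851 windows of this length, and 2 held a box when 1 letter was allowed, against 9.98%. The element reads alike on both strands, so 1 search covers both. A match describes the letters only and shows no binding.

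Several measures set the control arrays apart from the shRNA arrays, and these bear on every value against control. The biotin-labelled hybridization controls, added in a fixed amount, stood on control 1 at 82.3 times, and on control 2 at 16.2 times, their average in the hairpin groups, whose own arrays ranged from 0.806 to 1.20 times it. The median signal of an array was 305 and 216 for control and ranged from 70.7 to 79.9 in the hairpin groups. The ratio of 3' to 5' signal, which rises as RNA degrades, also set the control arrays apart from each other: on control 1 Actb had 0.691 and Gapdh 0.723, whereas control 2 had 14.5 and 5.11. The spermatid labels were checked against 12 elongating spermatid genes, whose median rank lay at the 43.7th percentile on control 1, the 99.4th on control 2 and between the 99.0th and 99.6th on the shRNA arrays. On control 1, 6 of the 12 genes read below the array median, among them Prm2 (110) and Tnp1 (38.9), which package sperm DNA. The others read above it, among them Prm1 (2191) and Oaz3 (601). The targeted gene Piwil1 read 9780 and 10392 in shMiwi, 21881 and 22442 in shCaf1, and 1445360 and 292542 in control. Cnot7 read 3633 and 4330 in shCaf1, 4365 and 5012 in shMiwi, and 2003570 and 188877 in control. Its deposited signal was thus far below control in both shRNA groups, and it did not pass between them (limma adjusted p = 0.307). With the arrays set level on the hybridization controls, its log2 difference from control was -1.65 in shMiwi and -2.28 in shCaf1. For Piwil1 these were -0.62 and 0.12.

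Of the 19 probe sets, 12 passed the filter on dim signal (a mean log2 signal above the 40th percentile, here 6.55) and represent all 9 genes; the other 7 were not tested. Signals in this text are linear intensities, and differences are of log2(signal + 16). In the shRNA arrays Acta2 and Actg2, the actin members, ranked between the 88.7th and 95.7th percentile of an array, whereas Cnn1 ranked between the 23.8th and 55.5th. The 7 untested probe sets read between 1.71 and 66.7 on the shRNA arrays, below the median of every such array, and between 13.2 and 665 on the control arrays. They are extra probe sets of Acta2, Myh11, Des, Tpm1 and Tpm2. Just inside the filter lay Cnn1 1417917_at, with a mean of 6.80, and just outside it Tpm2 1449577_x_at, with 6.43. A probe set's rank is not a measure of its gene's abundance against another gene, since probe sets differ in brightness.

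**Figure D1:**
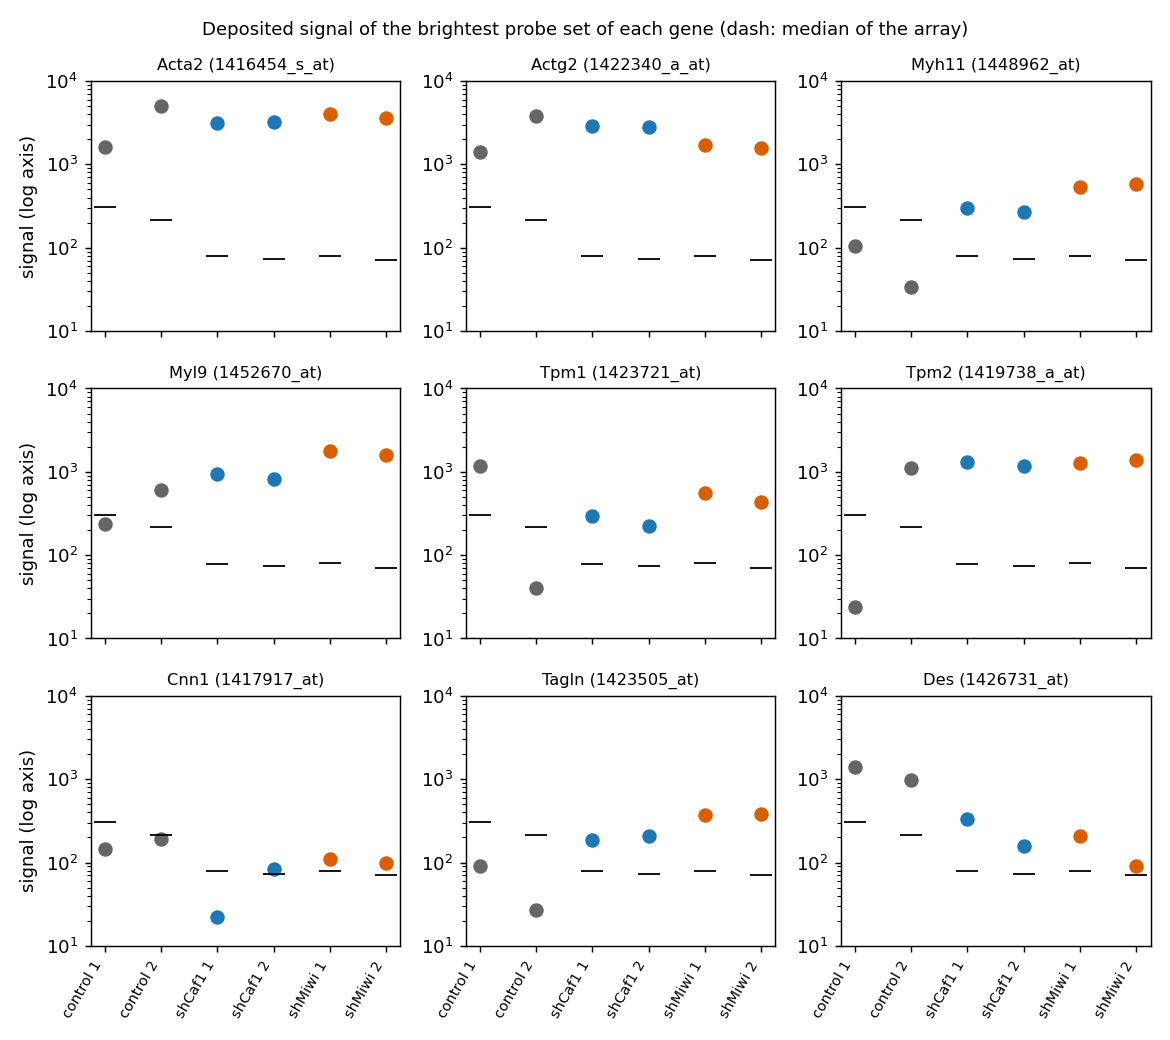
Deposited signal (log axis) of the brightest probe set of each of the 9 genes on each array, with grey points for control, blue for shCaf1 and orange for shMiwi, and a dash at the median signal of that array. The points of shMiwi lie above those of shCaf1 for Myh11, Myl9, Tagln and Tpm1 and below them for Actg2, and the control points of Tpm1 and Tpm2 lie far apart.

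Between the shRNA groups Myh11, Myl9, Tagln and Tpm1 were higher in shMiwi than in shCaf1 and Actg2 was lower. The rises were between 1.85-fold and 1.91-fold and the fall was 1.75-fold. Of the 12 tested member probe sets, 4 were called higher, against 3.81% of all 27022 tested probe sets, and 1 was called lower, against 3.52% (limma on the 4 shRNA arrays, adjusted p under 0.05). The median difference of the members was 0.47, against 0.02 over all tested probe sets. The 3'/5' ratio of Gapdh, a sign of RNA quality, was 1.06 and 1.73 in shCaf1 and 0.811 and 1.00 in shMiwi, without overlap, and that of Actb was 2.87 and 4.69 against 2.05 and 3.01; its part in the differences was not tested. In these sorted bulk samples, fewer cells of a type and less RNA per cell cannot be told apart.

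The motor protein members moved together. Myh11, the smooth muscle myosin heavy chain and the most specific marker of this lineage, read 298 and 270 in shCaf1 and 532 and 579 in shMiwi. Both shMiwi arrays lay above both shCaf1 arrays, and the log2 difference was 0.93 (SE 0.17, n = 2 per group, limma adjusted p = 0.0182). Myl9, the regulatory light chain that is phosphorylated to start contraction, read 930 and 817 in shCaf1 and 1763 and 1603 in shMiwi. Again the groups did not overlap, and the difference was 0.94 (SE 0.14, limma adjusted p = 0.00961). The second Myh11 probe set, 1418122_at, read between 8.02 and 19.4 on the shRNA arrays, too dim to compare.

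Of the actins, 1 was called. Acta2, the smooth muscle alpha-actin, read 3103 and 3254 in shCaf1 and 3969 and 3606 in shMiwi. The shMiwi arrays were the higher ones, but the difference of 0.25 (95% interval -0.01 to 0.51) did not pass (limma adjusted p = 0.223). Its probe set, 1416454_s_at, has the ending that Affymetrix gives to probes matching several transcripts, so signal from the near-identical actin paralogs cannot be separated out. Actg2, the gamma-actin of enteric smooth muscle, read 2907 and 2832 in shCaf1 and 1703 and 1557 in shMiwi. It fell by 0.81 on the log2 scale (SE 0.12, limma adjusted p = 0.00961), with no overlap of the groups, and was the only tested member called in that direction.

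The thin filament regulators differed by gene. Tpm1, a tropomyosin of many muscle and non-muscle cells, read 297 and 225 in shCaf1 and 558 and 432 in shMiwi at probe set 1423721_at, a difference of 0.88 (SE 0.21, limma adjusted p = 0.0390). At its other tested probe set, 1423049_a_at, it read 138 and 102 against 311 and 130, which did not pass (difference 0.70, 95% interval -0.11 to 1.51). The groups did not overlap at the first and did overlap at the second, where 1 shMiwi array stood at 130 and 1 shCaf1 array at 138. Tpm2, the other smooth muscle tropomyosin, read 1293 and 1177 in shCaf1 and 1278 and 1392 in shMiwi at its brightest probe set. Its 3 tested probe sets differed by 0.11, 0.14 and 0.09, with 95% intervals of -0.19 to 0.42, -0.21 to 0.49 and -0.86 to 1.04, and none passed.

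Tagln (transgelin, or SM22), an actin-binding protein used as an early smooth muscle marker, read 185 and 209 in shCaf1 and 377 and 384 in shMiwi. Both shMiwi arrays were above both shCaf1 arrays, by a log2 difference of 0.90 (SE 0.18, limma adjusted p = 0.0266). Cnn1, the calponin that restrains actomyosin, read 22.3 and 84.3 in shCaf1 and 111 and 99.5 in shMiwi. Its difference of 0.97 was as large as that of Tagln, but the shCaf1 arrays lay far apart, at the 23.8th and 52.5th percentile of their array, and it did not pass (SE 0.44, limma adjusted p = 0.214). Des, the muscle intermediate filament protein, read 329 and 156 in shCaf1 and 206 and 90.4 in shMiwi. The groups overlapped, and its difference of -0.66 did not pass (95% interval -1.57 to 0.24).

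**Figure D2:**
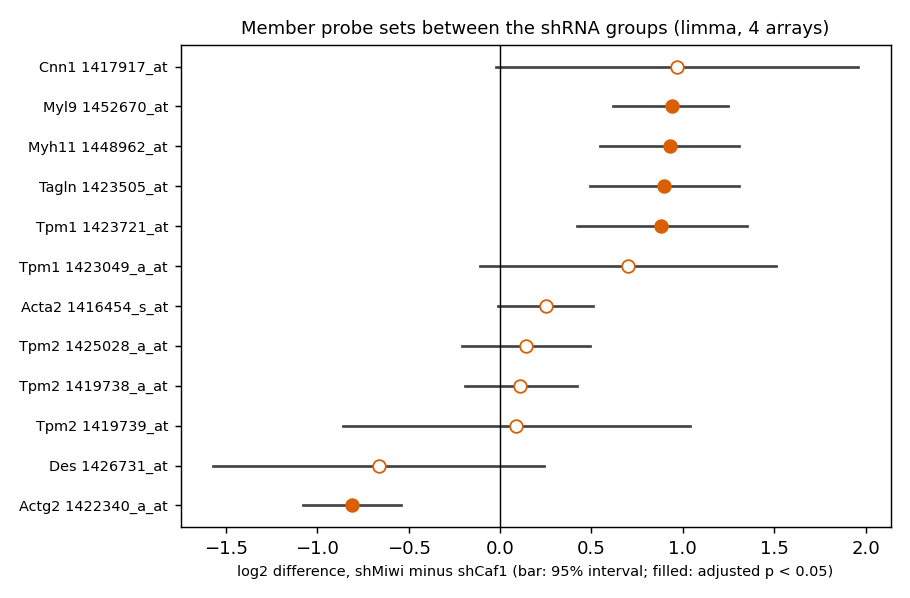
Log2 difference of shMiwi minus shCaf1 for the 12 tested member probe sets, with 95% intervals from limma on the 4 shRNA arrays; filled points have an adjusted p under 0.05. Myl9, Myh11, Tagln and 1 Tpm1 probe set are filled between 0.88 and 0.94, and Actg2 is filled at -0.81.

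These 5 calls rest on the intensity-trend model of the spread and on all 4 arrays. Without the trend (limma adjusted p between 0.143 and 0.162), in a model that includes the control arrays, or without shCaf1 replicate 2, none of the 5 passed. At an unadjusted p under 0.05 the members higher and lower were 4 and 1 without the trend, 0 and 0 with the control arrays, and 5 and 2 without shCaf1 replicate 2. Over all 27022 probe sets these counts were 3023 and 2464, 129 and 135, and 2246 and 1987. On the scale of the hybridization controls, where the median over all probe sets was 0.39 in place of 0.02, 7 of the 12 were called higher (26.1% of all probe sets) and 0 lower (0.951%), with Actg2 at -0.42 (adjusted p = 0.127) and Acta2 at 0.65 (adjusted p = 0.0120).

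Genes that work with the members were read from lists, each gene by its brightest probe set. Receptors, secreted factors and basement membrane genes of peritubular myoid cells, several of which Sertoli, Leydig or vascular cells also make, rose in 8 of 14 cases in shMiwi against shCaf1 and fell in 0, against 4.27% and 4.85% of all 14298 genes, with a median of 0.71 against -0.00. Col4a1, a basement membrane collagen, read 650 and 607 in shCaf1 and 1914 and 1806 in shMiwi, a difference of 1.54 (SE 0.13, limma adjusted p = 0.00125). Tcf21, a mesenchymal transcription factor, rose by 1.29 (SE 0.17, adjusted p = 0.00636). Col4a2 rose by 1.11, the PDGF receptors Pdgfrb and Pdgfra by 1.03 and 0.87, the laminin chain Lama2 by 0.77, nidogen (Nid1) by 0.71 and the hedgehog receptor Ptch1 by 0.62. The last gene named from this list, Nr2f2, read 614 and 537 against 672 and 401 and did not pass. The count of 8 became 2 without shCaf1 replicate 2, 4 without shCaf1 replicate 1, 0 without the intensity trend and 11 on the hybridization scale (26.8% of genes).

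Of 21 other contractile and cytoskeletal genes, limma called 0 in either direction, with a median of 0.18. At an unadjusted p under 0.05, 4 were higher and 1 lower. The share of all genes at that unadjusted threshold is not given here, so nothing is read from these counts. The non-muscle actins Actb and Actg1 read 18028 and 17451, and 17176 and 18125, in shCaf1 against 16747 and 13530, and 16796 and 16219, in shMiwi. Their differences of -0.24 and -0.10 did not pass, nor did those of Cnn3 (0.28) and Tpm3 (-0.30), a calponin and a tropomyosin of many tissues. Without shMiwi replicate 1 the median of the 21 genes was 0.10, against -0.04 over all genes. On the hybridization scale 10 of the 21 were called higher, where 26.8% of all genes were. Their median there was 0.56, against 0.38 over all genes. Of 13 contraction regulators, 1 rose and 0 fell, with a median of 0.19. It was Oxtr, the oxytocin receptor that drives smooth muscle contraction, which read 179 and 291 in shCaf1 and 473 and 463 in shMiwi (difference 0.98, SE 0.23, limma adjusted p = 0.0393). The brightest regulators, Rock1 (0.43), the myosin phosphatase subunits Ppp1cb (0.42) and Ppp1r12a (0.05), and Rhoa (0.17), did not pass. The call of Oxtr was absent without shCaf1 replicate 1, with quantile normalization and without the intensity trend, where 0 of the 13 passed, and the list had 3 rises without shMiwi replicate 1 and 6 on the hybridization scale.

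Markers of other cells were read beside these results. Of 12 elongating spermatid genes, 0 rose and 9 fell in shMiwi against shCaf1, with a median of -0.64. Oaz3, a spermatid antizyme, read 19572 and 20310 in shCaf1 and 9554 and 10284 in shMiwi (difference -1.01, SE 0.10, limma adjusted p = 0.00188), and Akap4, of the sperm tail fibrous sheath, fell by 0.98. Summed over the list, the signal was 197433 and 211144 in shCaf1 and 141348 and 129404 in shMiwi. Actg2 was also lower in the shMiwi arrays, and a link between it and these genes was not tested. The count of 9 was 7 with quantile normalization, 3 on the hybridization scale (1.11% of genes lower), 4 without shCaf1 replicate 2 and 0 without the trend. Of 5 spermatid actin-like and capping genes, 1 fell (Actl7a, -0.85), with a median of -0.37 that turned to 0.03 on the hybridization scale.

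Somatic markers are read against the same 4.27% and 4.85% of all genes. Among 11 Sertoli cell genes, Wt1 (0.77) and Inha (0.59) rose and 0 fell, with a median of 0.10 and sums of 51917 and 52243 in shCaf1 and 54421 and 51747 in shMiwi. Among 4 Leydig cell genes Cyp11a1, the first enzyme of steroid synthesis, rose (0.51), with sums of 19498 and 19853 against 23954 and 23386. Limma called 0 of 6 vascular mural cell genes (1 higher at an unadjusted p under 0.05), with a median of 0.44 and sums of 721 and 730 against 927 and 787. It called 0 of 6 endothelial genes (0 also unadjusted, median 0.20, sums over 8 genes of 850 and 924 against 1041 and 916). Of 7 macrophage genes it called 0 (1 higher and 1 lower unadjusted, median -0.03, sums of 6331 and 5789 against 5983 and 5745). No share of all genes is given here for the unadjusted threshold, so nothing is read from the unadjusted counts. Of 7 striated muscle genes only Acta1, the skeletal alpha-actin, was called, as lower: it read 88.0 and 152 in shCaf1 and 40.6 and 23.0 in shMiwi (-1.49). Both shMiwi signals of Acta1 lay below their array medians of 79.9 and 70.7, so dim that the size depends on the added constant. Its control signals of 2020 and 608 raised the mean used by the filter on dim signal. The calls of Wt1, Inha, Cyp11a1 and Acta1 were all absent without shCaf1 replicate 2 and without the intensity trend. That of Acta1 was also absent without shMiwi replicate 2, those of Wt1 and Cyp11a1 without shCaf1 replicate 1, and that of Cyp11a1 with median centring. Quantile normalization gave 3 Sertoli and 2 Leydig rises, and leaving out shMiwi replicate 1 gave 3 Sertoli rises and 1 macrophage fall. On the hybridization scale, where 26.8% of all genes were called higher, 4 of 10 Sertoli, 2 of 4 Leydig, 2 of 6 mural, 1 of 6 endothelial and 2 of 7 macrophage genes rose. No marker of these lists was at 0, since every deposited signal is positive. Below the array median on 1 or more shRNA arrays lay up to 11 of 15 striated, 4 of 8 endothelial, 3 of 6 mural, 3 of 15 myoid receptor and 1 of 11 Sertoli genes, and 0 Leydig and macrophage genes. The part of other cells in the members' differences was not tested.

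**Figure D3:**
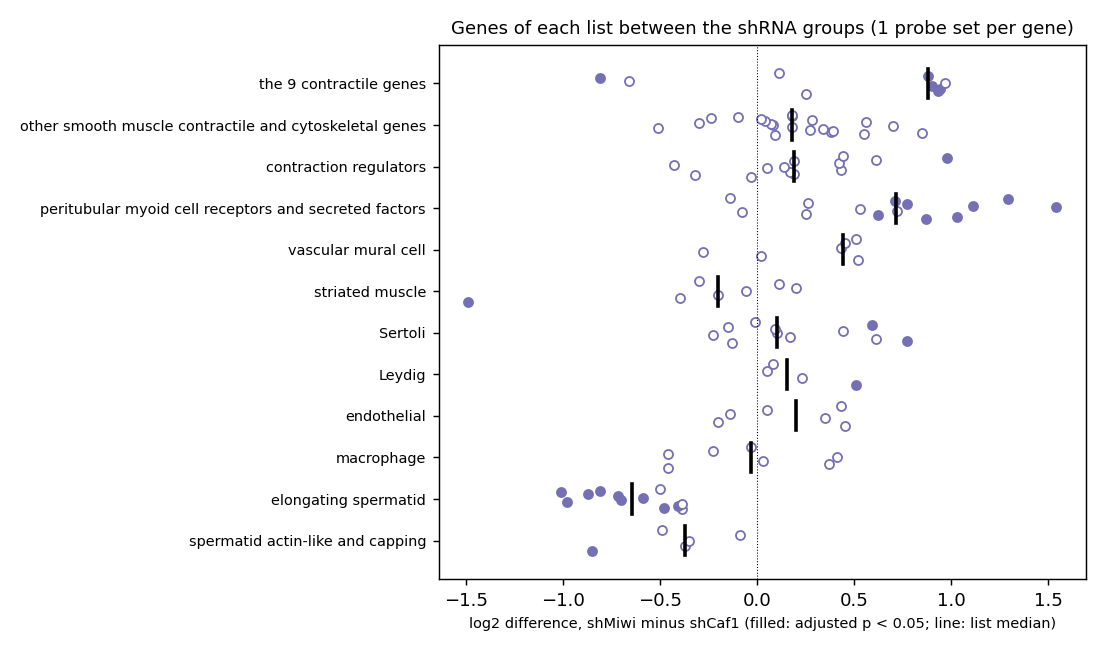
Log2 difference of shMiwi minus shCaf1 for each gene of each list (1 probe set per gene, limma on the 4 shRNA arrays), with filled points at an adjusted p under 0.05 and a line at the list median. The 9 contractile genes have a median of 0.88 with 4 higher and 1 lower call, the myoid receptors and secreted factors a median of 0.71, and the elongating spermatid genes one of -0.64.

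Against control, the members split. On the deposited scale Myh11, Myl9 and Tagln were higher in shMiwi, Des and 1 Tpm2 probe set were lower, and 7 of the 12 probe sets did not pass. In shCaf1 only Myh11 was called higher, and the same Des and Tpm2 probe sets were called lower. Both comparisons use the same control arrays. The 3 higher calls in shMiwi stand beside 16.9% of all probe sets called higher, and the 2 lower calls beside 26.4%; for shCaf1 the 1 and 2 calls stand beside 15.5% and 26.0%. Taken per gene, 3 of the 9 were higher and 1 lower in shMiwi (18.6% and 22.7% of all genes), and 1 and 1 in shCaf1 (17.2% and 22.4%). These shares are near the background, so nothing about the members is read from the counts.

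Myh11 read 106 and 34.1 in control, below the median of both arrays, against 270 to 579 in the shRNA arrays. It rose by 2.87 in shMiwi (SE 0.51, limma adjusted p = 0.0105) and by 1.94 in shCaf1 (adjusted p = 0.0323), from signals so dim that the size depends on the added constant. The control means of Myh11 and Tagln, at 6.29 and 6.08 on the log2 scale, lay under the filter of 6.55, so both were tested only through the shRNA groups, where they were high. Tagln read 89.9 and 27.3 in control and rose by 2.55 in shMiwi (adjusted p = 0.0152), while its difference of 1.65 in shCaf1 missed the threshold (adjusted p = 0.0540). Myl9 read 237 and 608 in control and rose by 2.10 in shMiwi (adjusted p = 0.0260), with 1.16 in shCaf1 (adjusted p = 0.130). At the tested probe sets of these 3 genes every shRNA array lay above both control arrays. Myh11 1418122_at, untested, went the other way, at 71.7 and 90.8 in control and between 8.02 and 19.4 in the shRNA arrays. With no filter it was called lower in both shRNA groups. How many of all probe sets separate in this way was not counted, so nothing about the members is read from it. The differences between shMiwi and shCaf1 are those tested directly above.

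Among the tested probe sets, Des, Cnn1, Tpm1 1423049_a_at and Tpm2 1419739_at read lower on every shRNA array than on both control arrays. The median signal of an array was itself 305 and 216 in control and from 70.7 to 79.9 in the shRNA groups. The share of all probe sets that read lower in this way was not counted, so no trait of the members is read from it. Tpm1 1423049_a_at read 1522 and 359 in control and between 102 and 311 in the shRNA arrays. Its differences of -1.80 in shMiwi and -2.50 in shCaf1 did not pass (limma adjusted p = 0.125 and 0.0560). Des read 1414 and 970 in control against 90.4 to 329 in the shRNA arrays. It fell by 2.95 in shMiwi (SE 0.57, limma adjusted p = 0.0132) and by 2.29 in shCaf1 (adjusted p = 0.0281). The untested Des probe set read 665 and 218 in control and between 2.02 and 41.0 in the shRNA arrays. Tpm2 1419739_at read 355 and 381 in control and between 38.8 and 96.6 in the shRNA arrays, and differed from control by -2.29 in shMiwi (limma adjusted p = 0.0203) and -2.38 in shCaf1 (adjusted p = 0.0191). Its mean log2 signal was 8.58 in control but 6.30 and 6.21 in the shRNA groups, under the filter of 6.55, so it was tested only through the group where it was high. The brightest Tpm2 probe set went the other way, at 2.67 and 2.56, and did not pass: it read 23.9 on control 1 and 1108 on control 2, so the control arrays alone spanned nearly its whole range. Tpm2 1425028_a_at also read higher on every shRNA array, at 478 to 560 against 154 and 304 in control. Its differences of 1.25 in shMiwi and 1.10 in shCaf1 did not pass (limma adjusted p = 0.0633 and 0.0893).

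Acta2 read 1636 and 4949 in control and Actg2 1392 and 3840, so for both actins the control arrays enclosed all 4 shRNA arrays. Acta2 differed from control by 0.41 in shMiwi and 0.16 in shCaf1, and Actg2 by -0.50 and 0.31, and none of these passed (limma adjusted p between 0.504 and 0.849). Fits without 1 control replicate leave 1 control array, so only their differences are given. Without control replicate 1, Acta2 differed by -0.39 in shMiwi and -0.64 in shCaf1, and Actg2 by -1.23 and -0.42. Without control replicate 2, Acta2 differed by 1.20 and 0.95, and Actg2 by 0.22 and 1.04. Tpm1 1423721_at read 1185 on control 1 and 40.7 on control 2, and differed by 0.96 in shMiwi and 0.07 in shCaf1. These differences became -1.24 and -2.13 without control replicate 2, and 3.16 and 2.28 without control replicate 1. Cnn1, at 147 and 193 in control, differed by -0.61 and -1.58 and did not pass.

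On the scale of the hybridization controls all 12 member probe sets were higher than control in both shRNA groups, Des and Tpm2 1419739_at included, at 1.79 and 1.62 in shMiwi and 2.10 and 1.23 in shCaf1. On that scale 94.0% of all probe sets were called higher in shMiwi and 91.5% in shCaf1, and the median of all probe sets was 3.58 and 3.15, against 4.64 and 3.66 for the members. The direction of Des and Tpm2 1419739_at against control therefore depends on the scaling. Without either array of the shRNA group compared, limma called 0 probe sets of any gene against control; at an unadjusted p under 0.05, 2 or 3 members were higher and 2 lower in shMiwi, and 0 and 2 in shCaf1. Over all 27022 probe sets, 3553 were higher and 6097 lower without shMiwi replicate 1, and 3485 and 5539 without replicate 2; for shCaf1 these were 3185 and 5833, and 3214 and 5536. The count of members higher in shMiwi was 5 without control replicate 1 and 6 without control replicate 2, and in shCaf1 5 and 7; those lower were 4 and 4, and 6 and 5. In the same fits 21538 and 22700 of all 27022 probe sets were called in either direction in shMiwi, and 21205 and 22675 in shCaf1, so nothing about the members is read from these counts.

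**Figure D4:**
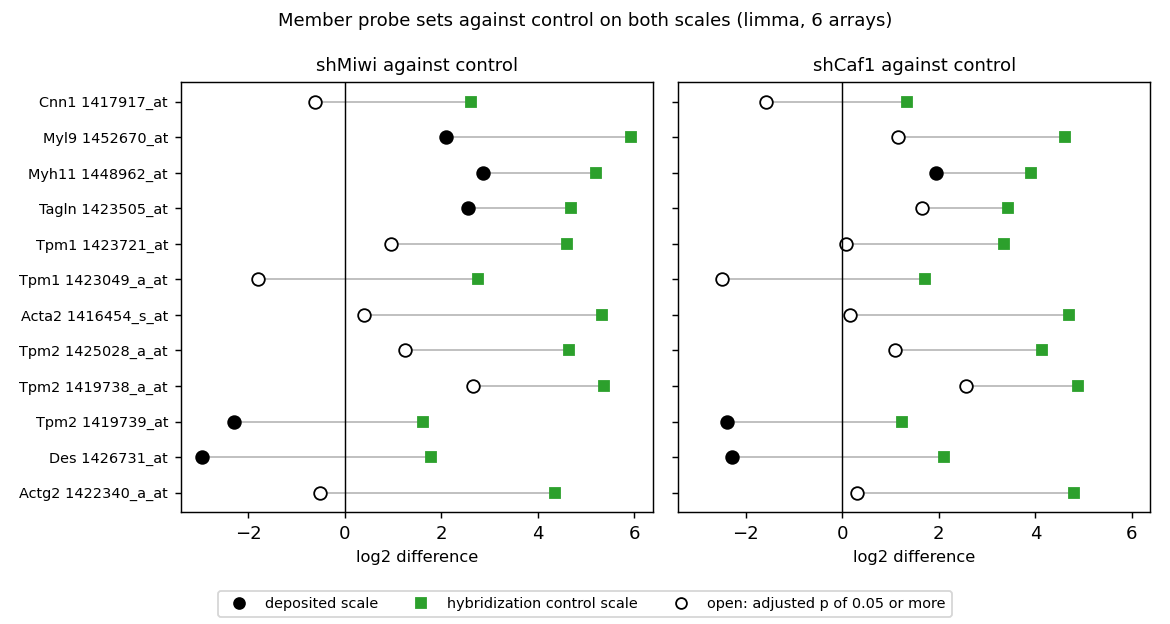
Log2 difference from control for the 12 tested member probe sets in shMiwi (left) and shCaf1 (right), as deposited (circles) and scaled on the hybridization controls (squares); open symbols did not pass an adjusted p of 0.05. As deposited the points lie on both sides of 0, between -2.95 and 2.87 in shMiwi, and on the other scale every point lies above 0.

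The companion lists against control are read beside 18.6% of all genes called higher and 22.7% lower in shMiwi, and 17.2% and 22.4% in shCaf1. Of the 14 myoid receptors and secreted factors, 6 rose and 3 fell in shMiwi, and 3 rose and 3 fell in shCaf1, with medians of 1.32 and 0.19 against 0.09 and 0.07 over all genes. Nid1 rose most among the named ones, by 4.27 in shMiwi, from 33.2 and 45.9 in control to 1030 and 1065. Both control signals of Nid1 lay under the filter on dim signal. It was thus tested only through the shRNA groups, where it was high. Nr2f2, a nuclear receptor of stromal cells, read 14419 and 12174 in control and fell by 4.63. Of the 21 other contractile and cytoskeletal genes, 1 rose and 8 fell in each group, and of the 13 regulators 2 rose in each while 0 fell in shMiwi and 2 in shCaf1. With all 6 arrays the medians in shMiwi and shCaf1 were 0.06 and -0.32 for the other contractile genes. For the regulators they were 0.02 and -0.86. Fits without control replicate 1 or 2 leave 1 control array, so only their medians are given, in that order. Those of the other contractile genes were -0.52 and -1.53 in shMiwi and -0.68 and -1.92 in shCaf1. For the regulators they were -0.11 and 0.40 in shMiwi and -0.56 and -0.03 in shCaf1. For the myoid receptors and secreted factors they were 1.08 and 1.09 in shMiwi and -0.21 and 0.05 in shCaf1. Over all genes they were -0.22 and 0.10 in shMiwi and -0.22 and 0.06 in shCaf1. There were 0 falls in any of these 3 lists on the hybridization scale. On that scale 94.0% of all probe sets were called higher in shMiwi and 91.5% in shCaf1, so nothing about the lists is read from this.

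Over the 6 arrays, the named genes outside the lists whose log2 signal ran closest to that of Acta2 were Lrsam1 (Pearson r 0.997), Pcbp1 (0.995), Inppl1 (0.995), Myo18a (0.995) and Rab3c (0.994). With only 6 arrays, 7.74% of the 14298 genes had an r above 0.9, and the points share the wide gap between the control arrays, so the values describe likeness only. Pcbp1, an RNA-binding protein, read 4495 and 12135 in control, 8260 and 8067 in shCaf1 and 10088 and 9737 in shMiwi. Among the members, Tpm2 (0.88), Myl9 (0.68) and Actg2 (0.58) had the highest r with Acta2, Myh11 and Tagln had 0.03 and -0.00, and Tpm1 had -0.77.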

How the data were processed

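Per the labels' protocols, Trizol-extracted total RNA went through a 3' IVT labelling kit onto mouse expression arrays made by Affymetrix. The authors' deposited values are signal intensities, 1 per probe set and array; the submitters' processing notes name MAS5, and its version and any genome build are not given in the sources used here. In each file the mean intensity, after trimming 2% at either end, was 500. Detection calls were not used here.

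Log2(signal + 16) was compared with limma 3.58.1 in R 4.3.3 (eBayes with an intensity trend) after leaving out 64 control probe sets and those at or below the 40th percentile of the mean over all arrays, which left 27022. Benjamini-Hochberg adjustment ran over all of these. Comparisons with control used all 6 arrays (3 residual degrees of freedom). The shMiwi against shCaf1 comparison used the 4 shRNA arrays (2 residual degrees of freedom), because the control arrays vary far more. A second scale set the arrays level on the 18 probe sets of the hybridization controls. Genes were named from probe sets with 1 symbol in the platform annotation, and outside the 9 members the probe set with the highest mean stood for a gene, which gave 14298.

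The members, the lists and the tests were chosen with earlier results of these data known. Named genes are all member probe sets, the 4 brightest genes of each companion list and those called between the shRNA groups, the 5 genes nearest Acta2, and the targeted genes; several of these are given only within counts. The alternatives tried were the added constant, the filter, the normalization, the trend, array weights, a replicate block, the arrays fitted and each array left out. The limma step was tested on simulated data that gave every group the spread of the shRNA arrays. That test does not cover the fits against control, whose control arrays vary far more. The number of arrays limits the precision.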

Additional observations from a re-analysis of the deposited data

How the results depend on the processing

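Between the shRNA groups no called member changed sign under any alternative. The number of members called higher, 4, was 2 with no filter on dim probe sets, 7 with hybridization control scaling, 1 at an adjusted p under 0.01, and 0 in eBayes without a trend or in limma with all 6 arrays in the model; the number called lower, 1, was 0 with hybridization control scaling, without a trend and with all 6 arrays. Leaving out 1 array gave 0 to 5 higher and 0 to 2 lower. Over all probe sets the count called was 1981, against 15 without a trend and 0 with all 6 arrays. With the replicate number as a block, 2 members were lower (Actg2 and Des, the latter at -0.66, adjusted p = 0.0290), 5 were higher and 5458 probe sets were called; the numbers are not known to pair the arrays, and deviations of same-numbered shCaf1 and shMiwi arrays correlated at 0.18 (0.06 and 0.00 with control). A filter on the shRNA arrays alone was chosen after seeing the data and changed no count of members by over 1.5 times.

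Against control, the 3 higher and 2 lower members in shMiwi became 12 and 0 with hybridization control scaling. They became 0 and 0 with array weights or at an adjusted p under 0.01, and 1 and 1 with only the 4 arrays compared. Over all 27022 probe sets, 11687 were called in shMiwi, and 25421, 3231, 5104 and 6632 under these settings in that order. Nothing about the members is thus read from these changes. The lower count of members in shMiwi was 5 with no filter, 1 with the filter at the 60th percentile or quantile normalization and 0 with median centring. In shCaf1, the 1 higher and 2 lower became 12 and 0, 0 and 0, 0 and 0, and 0 and 1 under the same settings in the same order; the higher count was 2 with an added constant of 64, 3 after quantile normalization and 4 after median centring, and the lower count 6 with no filter, 1 with the stricter filter or quantile normalization and 0 with median centring. Leaving out 1 array gave 0 to 6 higher and 0 to 4 lower in shMiwi, and 0 to 7 and 0 to 6 in shCaf1. The cause was not tested. With hybridization control scaling, differences turned sign in shMiwi for Actg2 (4.37), Cnn1 (2.62), Des (1.79), Tpm1 1423049_a_at (2.77) and Tpm2 1419739_at (1.62), and in shCaf1 for Cnn1 (1.33), Des (2.10), Tpm1 1423049_a_at (1.72) and Tpm2 1419739_at (1.23). Without control replicate 1, Acta2 turned to -0.39 and -0.64 and Actg2 in shCaf1 to -0.42, while Tpm1 1423721_at stood at 3.16 and 2.28. Without control replicate 2, Tpm1 1423721_at turned to -1.24 and -2.13, while Acta2 stood at 1.20 and 0.95 and Actg2 in shCaf1 at 1.04. Each of these fits had 1 control array. The 7 dimmest member probe sets cannot be compared at these signals.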
